A study of Mus musculus with 29 samples.

Results

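The 8 genes described here are Dhh, Ihh, Ptch1, Smo, Hhip, Gli1, Gli2 and Gli3, the ligand, receptor and transcription factor genes of the Hedgehog pathway. They were listed by name, and each matched 1 of the 51912 gene IDs in the count table. Bulk RNA sequencing had been carried out on mouse ovaries before birth on embryonic days 13.5 and 18.5 (E13.5 and E18.5), and after it on postnatal day 8 (PND8) and at 12 weeks. The genotypes were wild type (Cdkn1b +/+) and homozygous null (Cdkn1b -/-), called Cdkn1b-null below. Cdkn1b encodes p27Kip1, an inhibitor of cyclin-dependent kinases. There were 29 samples: 4 wild-type ones at every age, and 4 Cdkn1b-null ones at E18.5 against 3 at each of the other ages. All ovaries had been dissociated with papain, so the RNA came from dissociated cells of the whole organ and not from a sorted cell type. The labels give neither the strain nor the way the null allele was made, and they do not say whether samples were separate animals or pools. The p-values below therefore measure the spread between these samples, which may be technical.

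Hedgehog ligands are secreted proteins that bind Ptch1 on a receiving cell. Bound Ptch1 no longer holds back Smo, and Smo then acts through the primary cilium on the Gli transcription factors. Ptch1, Hhip and Gli1 are themselves transcriptional targets, so their transcripts are widely read as a measure of pathway activity. In the postnatal mouse ovary, granulosa cells of growing follicles make Dhh and Ihh, and the receiving cells are the theca and stroma outside the follicle.

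Library totals were 14095601 to 24855045 counts in the 15 fetal libraries and 24072433 to 48213177 counts in the 14 postnatal ones. The file header names a folder of 2 combined projects without saying which samples came from which. The step across birth, library depth and any difference between projects therefore cannot be told apart. Levels are given as CPM, counts as a share of the library total in parts per 1e6, with TMM factors as a correction for differences in RNA composition. A level of 3 counts, taken as the floor of detection, was 0.0622 to 0.213 CPM, which covers counting error only because reads carrying no molecular identifier are not independent of each other. Cdkn1b was lower in every Cdkn1b-null library than in any wild-type library of the same age, at 4.29 to 15.6 CPM against 19.1 to 123 before birth and 42.1 to 79.8 against 124 to 264 after it. The labels do not say which part of the gene is missing in the null allele. At E13.5, red blood cell genes took 19.0% of the counts in wild-type replicate 3, against at most 3.61% in any other library. The 5 genes of adrenal medulla and sympathetic cells summed to 313, 25.7, 21.3 and 179 CPM in wild-type replicates 1 to 4 at E13.5 and to 2.2 to 3.83 CPM in the Cdkn1b-null libraries of that age.

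The start-site windows of the 2 ligand genes and of the target genes Ptch1 and Hhip are shown because ligands and targets changed together across birth. They are the 250 bases upstream of the RefSeq gene start on GRCm38.p6, read 5′ to 3′ on the coding strand, and all 4 genes shown lie on the minus strand. The windows are chr15:98898541-98898790 for Dhh, chr1:74951673-74951922 for Ihh, chr13:63565736-63565985 for Ptch1 and chr8:80058009-80058258 for Hhip. The Ptch1 window lies inside the span that GENCODE M21 gives the gene, and the other 3 adjoin the annotated start or lie within 3 bases of it. Capitals mark the GC box GGGCGG on either strand.
Dhh: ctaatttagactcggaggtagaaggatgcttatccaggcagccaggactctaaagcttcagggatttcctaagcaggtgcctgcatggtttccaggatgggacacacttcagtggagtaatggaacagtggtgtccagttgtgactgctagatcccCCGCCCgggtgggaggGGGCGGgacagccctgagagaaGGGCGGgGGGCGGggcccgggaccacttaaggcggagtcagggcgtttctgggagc
Ihh: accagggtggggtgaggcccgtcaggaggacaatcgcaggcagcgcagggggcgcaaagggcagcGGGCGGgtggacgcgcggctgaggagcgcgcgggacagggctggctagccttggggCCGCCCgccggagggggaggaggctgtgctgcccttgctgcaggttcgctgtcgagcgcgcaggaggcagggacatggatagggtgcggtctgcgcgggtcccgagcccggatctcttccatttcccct
Ptch1: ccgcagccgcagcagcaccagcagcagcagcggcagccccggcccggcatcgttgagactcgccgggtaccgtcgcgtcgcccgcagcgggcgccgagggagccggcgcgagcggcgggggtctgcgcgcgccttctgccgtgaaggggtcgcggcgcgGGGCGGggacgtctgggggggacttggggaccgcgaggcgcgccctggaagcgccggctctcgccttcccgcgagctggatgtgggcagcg
Hhip: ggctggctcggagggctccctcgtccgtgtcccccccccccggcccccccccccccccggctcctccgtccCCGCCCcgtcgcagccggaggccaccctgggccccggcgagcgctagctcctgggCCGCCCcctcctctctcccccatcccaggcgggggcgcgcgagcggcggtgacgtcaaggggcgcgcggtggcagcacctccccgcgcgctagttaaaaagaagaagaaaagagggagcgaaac
RefSeq windows were matched for 7 of the 8 genes, Gli1 being the exception. The GC box was present in 6 of these 7 windows, Smo being the exception, and in 32.7% of the 32851 mouse windows searched. Dhh held 4 matches, Ihh and Hhip 2 each, and Ptch1 1. The GLI consensus GACCACCCA, searched on both strands, had no match in the 7 windows and matched 0.225% of all windows. These matches describe the letters of the windows and not bound sites.

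The ligand genes were scarce before birth and abundant after it. Dhh (chromosome 15, positions 98891152 to 98898540 on GRCm38) measured 3.64, 1.23, 0.539 and 1.41 CPM in wild-type replicates 1 to 4 at E13.5, and 0.98, 0.871, 1.25 and 0.585 CPM at E18.5. At PND8 its values were 36.2, 51.8, 69.4 and 37.1 CPM, and at 12 weeks 46.6, 41.2, 73.9 and 54.0 CPM. The fetal and postnatal wild-type values did not overlap, whereas the 2 fetal ages overlapped each other and so did the 2 postnatal ages. Cdkn1b-null values were 0.796, 1.01 and 1.65 CPM at E13.5, then 1.56, 0.784, 1.47 and 1.32 CPM at E18.5. After birth they were 47.4, 38.5 and 40.9 CPM at PND8 and 42.4, 46.2 and 22.2 CPM at 12 weeks. The same gap between fetal and postnatal libraries appeared in this genotype. The highest fetal value, 3.64 CPM, came from the E13.5 library with the most adrenal medulla and sympathetic transcripts, and the part of those cells in it was not tested.

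Ihh (chromosome 1, 74945315 to 74951672) was at or near the floor in all 15 fetal libraries, with 0 to 5 counts in each. Summed over libraries, wild type held 12 counts at E13.5 and 5 at E18.5, and Cdkn1b-null held 4 and 7. At PND8 the wild-type replicates measured 24.7, 47.0, 37.9 and 47.1 CPM, and the Cdkn1b-null ones 20.2, 19.0 and 48.1 CPM. At 12 weeks they measured 95.8, 160.9, 103.7 and 61.9 CPM in wild type and 49.0, 90.8 and 25.6 CPM in Cdkn1b-null. All wild-type values at 12 weeks lay above all at PND8, and in Cdkn1b-null the 2 ages overlapped. Shh, the other mammalian ligand gene, had at most 10 counts summed over any group.

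The receptor genes were already present in the fetal ovary. Ptch1 (chromosome 13, 63508328 to 63573598), which binds the ligand and is also a target, measured 34.9, 16.1, 26.7 and 24.2 CPM in wild type at E13.5 and 15.4, 21.6, 16.0 and 29.1 CPM at E18.5. It reached 775.5, 444.8, 424.0 and 363.7 CPM at PND8 and 385.6, 229.0, 557.8 and 490.9 CPM at 12 weeks. Every postnatal library exceeded every fetal library, and the 2 postnatal ages overlapped. In Cdkn1b-null, Ptch1 measured 15.1 to 24.7 CPM at E13.5, 14.3 to 19.9 CPM at E18.5, 382.2 to 532.2 CPM at PND8 and 359.9 to 421.1 CPM at 12 weeks. Smo (chromosome 6, 29735503 to 29761365), the transducer that Ptch1 restrains, was present at every age. Its wild-type values ran from 57.4 to 92.6 CPM at E13.5, 65.5 to 90.3 CPM at E18.5, 276.9 to 324.8 CPM at PND8 and 194.8 to 242.9 CPM at 12 weeks. In Cdkn1b-null they ran from 73.0 to 86.7, 60.6 to 72.6, 227.2 to 265.3 and 197.4 to 237.3 CPM at these ages.

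Hhip (chromosome 8, 79965851 to 80058006) encodes a membrane protein that binds and sequesters Hedgehog ligands. It measured 6.15, 2.02, 2.0 and 2.14 CPM in wild type at E13.5 and 0.464, 0.102, 0.048 and 0.084 CPM at E18.5. Those E18.5 values rest on 9, 2, 1 and 2 counts, so 3 of the 4 libraries were below the floor of 3 counts. In Cdkn1b-null it measured 3.65, 2.45 and 2.91 CPM at E13.5 and 0.64, 0.575, 0.662 and 0.519 CPM at E18.5. E13.5 and E18.5 did not overlap in either genotype, and at E18.5 all 4 Cdkn1b-null libraries lay above all 4 wild-type ones. Postnatal wild-type values were 133.4, 80.3, 46.1 and 75.0 CPM at PND8 and 66.3, 46.3, 57.2 and 43.3 CPM at 12 weeks. Cdkn1b-null values were 72.7, 91.7 and 94.3 CPM and then 76.1, 60.6 and 48.2 CPM.

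The 3 Gli genes followed different courses. Gli1 (chromosome 10, 127329882 to 127341974), the activator whose transcription follows pathway activity, measured 3.32, 4.71, 1.85 and 2.12 CPM in wild type at E13.5 and 3.82, 1.54, 4.24 and 5.48 CPM at E18.5. Its PND8 values were 124.4, 115.0, 72.7 and 76.9 CPM, and those at 12 weeks 41.5, 14.2, 41.4 and 49.6 CPM. PND8 lay above every other age without overlap. Cdkn1b-null libraries gave 7.96, 0.973 and 1.92 CPM at E13.5, 2.36, 0.314, 1.7 and 1.37 CPM at E18.5, 63.1, 82.3 and 58.5 CPM at PND8 and 49.2, 25.0 and 40.7 CPM at 12 weeks. Among the E13.5 replicates of that genotype, replicate 1 stood well above the other 2.

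Gli2 (chromosome 1, 118834132 to 119053619), which carries much of the activating signal, measured 20.7, 21.0, 18.0 and 13.6 CPM in wild type at E13.5 and 13.7, 11.4, 12.3 and 19.0 CPM at E18.5. After birth it measured 99.5, 75.0, 78.6 and 69.2 CPM at PND8 and 34.0, 21.6, 39.1 and 36.7 CPM at 12 weeks. In Cdkn1b-null it measured 28.4, 12.0 and 10.2 CPM, 6.92, 6.27, 8.85 and 7.59 CPM, 70.6, 66.1 and 53.4 CPM, and 34.9, 33.9 and 31.9 CPM at the 4 ages in order. PND8 was the highest age in both genotypes, 12 weeks came next, and neither overlapped the fetal values.

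Gli3 (chromosome 13, 15463235 to 15730026), whose processed form is the main repressor of the pathway, did not share the fetal gap. Wild-type values were 54.3, 51.9, 58.4 and 58.8 CPM at E13.5, 29.2, 40.2, 30.3 and 41.3 CPM at E18.5, 61.8, 46.0, 67.2 and 49.6 CPM at PND8 and 12.3, 8.42, 16.8 and 13.6 CPM at 12 weeks. Cdkn1b-null values were 71.4, 43.9 and 46.1 CPM, 33.7, 39.1, 38.6 and 37.3 CPM, 77.3, 70.7 and 54.5 CPM, and 13.6, 17.4 and 18.0 CPM at the same ages. E13.5 and PND8 overlapped in both genotypes, and the 12-week libraries were the lowest of all.

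**Figure D1:**
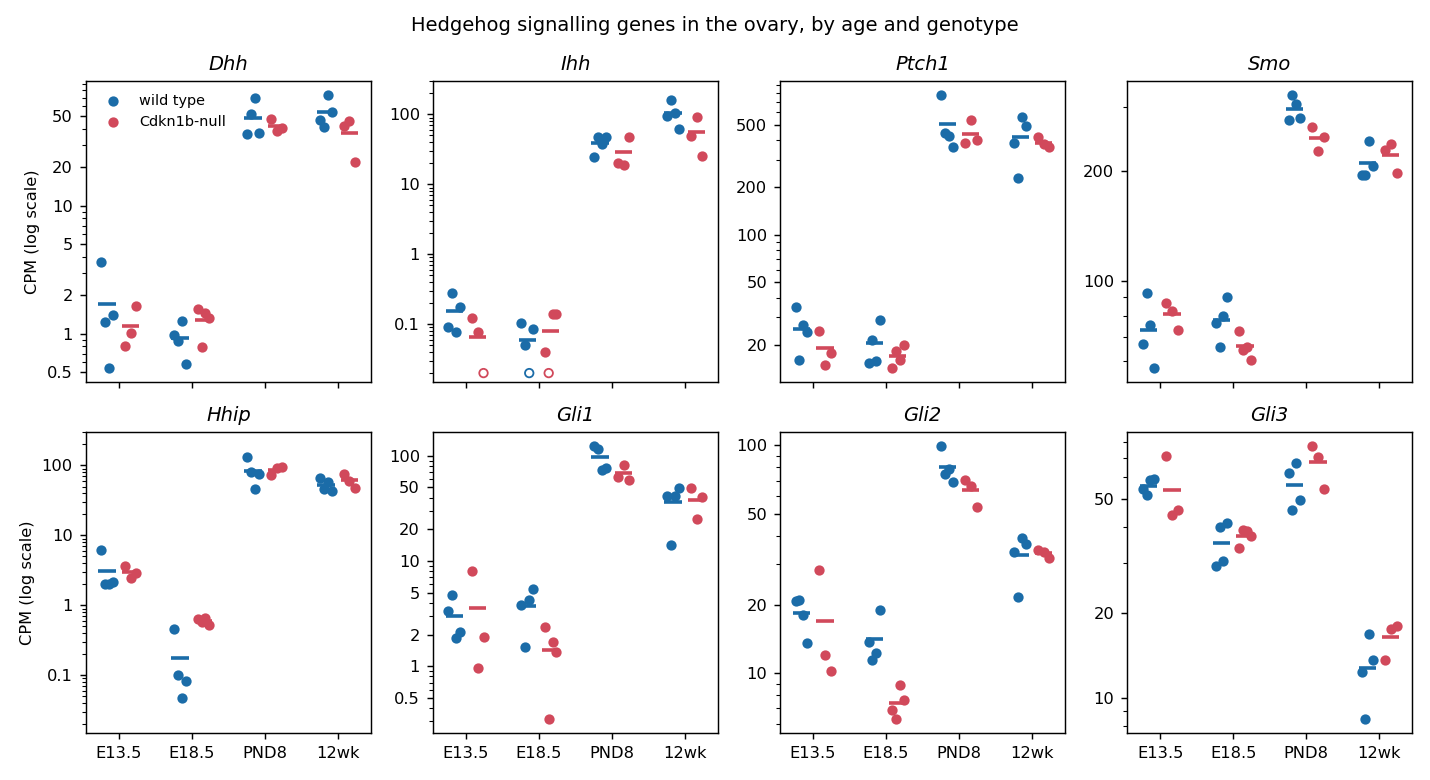
Level of each gene in every library, in CPM on a log axis that differs between panels, by age (E13.5, E18.5, PND8, 12 weeks) and genotype; points are libraries, bars are group means and open circles at the bottom of the Ihh panel are libraries with 0 counts. Ihh and Hhip stand far apart before and after birth, while Gli3 at PND8 overlaps Gli3 at E13.5 and is lowest at 12 weeks.

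From E18.5 to PND8 all 8 genes were higher in both genotypes, by edgeR's quasi-likelihood test with Benjamini-Hochberg adjustment over all genes tested and a threshold of 0.05; with an offset for transcript length and GC content Gli3 was instead called lower. Most of the transcriptome moved too: 74.6% of all genes tested were called in wild type and 77.4% in Cdkn1b-null, with 37.6% and 38.9% called higher. The groups of all 8 genes did not overlap in either genotype, as was the case for 70.6% of all genes tested in wild type and 77.5% in Cdkn1b-null. The median log2 change over the 8 genes was 4.56 in wild type and 4.78 in Cdkn1b-null, beside 0.01 and -0.01 over all genes tested. In bulk RNA, a change in the share of cells that express a gene cannot be told apart from a change in RNA per cell. Ihh passed the filter on low counts only through its PND8 libraries, and so did Hhip in wild type, so the calls on these genes had to follow.

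Dhh rose by a log2 fold change of 5.64 (SE 0.292, edgeR adjusted p = 1.46e-07) in wild type and 4.96 (SE 0.193, adjusted p = 1.42e-08) in Cdkn1b-null. For Ihh, the ratio of summed counts at PND8 to E18.5, scaled to library totals, was 544 in wild type, with an exact 95% interval for counting error of 233 to 1676. In Cdkn1b-null the ratio was 285, with an interval of 138 to 709. The fitted log2 change of Ihh, 9.17 and 8.35, depends on the prior count because the fetal group was at or under the floor. Hhip likewise rested on 14 fetal counts against 11405 in wild type, a ratio of 394 (235 to 720), and on 52 against 9218 in Cdkn1b-null, a ratio of 117 (89.1 to 157). Ihh and the decoy Hhip were thus the genes at or near the floor before the step. Ptch1 rose by 4.53 (SE 0.312) on the log2 scale in wild type and 4.61 (SE 0.167) in Cdkn1b-null. Gli1 rose by 4.60 (SE 0.344) and 5.46 (SE 0.397). Their rises were larger than those of Gli2 and Smo and, in wild type, smaller than those of the ligand genes Dhh and Ihh. The part of pathway activity in these rises was not tested. Gli2 rose by 2.43 (SE 0.186) and 3.03 (SE 0.14), and Smo by 1.85 (SE 0.116) and 1.84 (SE 0.08). The Gli3 difference was 0.59 (SE 0.168, adjusted p = 0.00866) in wild type and 0.80 (SE 0.118, adjusted p = 0.00014) in Cdkn1b-null with no offset.

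The change across birth grew with transcript length over the whole transcriptome, and that bears on the long genes of the list. Among all genes tested in wild type, the median log2 change was -0.61 for transcripts of 1 to 2 kb, 0.95 for 6 to 8 kb and 1.17 above 8 kb. In Cdkn1b-null it was -0.71, 1.08 and 1.40. Gli3, at 8.17 kb, therefore changed by less than the median gene of its length in both genotypes. Gli2, Ptch1 and Hhip, at 6.64, 10.4 and 9.07 kb, changed by more. With an offset per gene and library for length and GC content, added after this trend was seen, Gli3 was called lower at PND8, by -0.61 (SE 0.125, edgeR adjusted p = 0.00122) in wild type and -0.57 (SE 0.0939, adjusted p = 0.000288) in Cdkn1b-null. With it 71.3% of all genes tested were called in wild type, 33.5% higher and 37.8% lower, and 74.5% in Cdkn1b-null, 33.3% higher and 41.3% lower. The other 7 genes stayed called higher, Gli2 by 0.87 and 1.38 and Smo by 0.99 and 0.98 in the 2 genotypes. With that offset Ptch1 was higher by 3.21 and 3.05, Gli1 by 3.59 and 4.41, Dhh by 4.89 and 4.22, Ihh by 8.56 and 7.75 and Hhip by 8.35 and 6.32. The offset removes any real change that goes with length along with a technical one, and these cannot be told apart here.

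**Figure D2:**
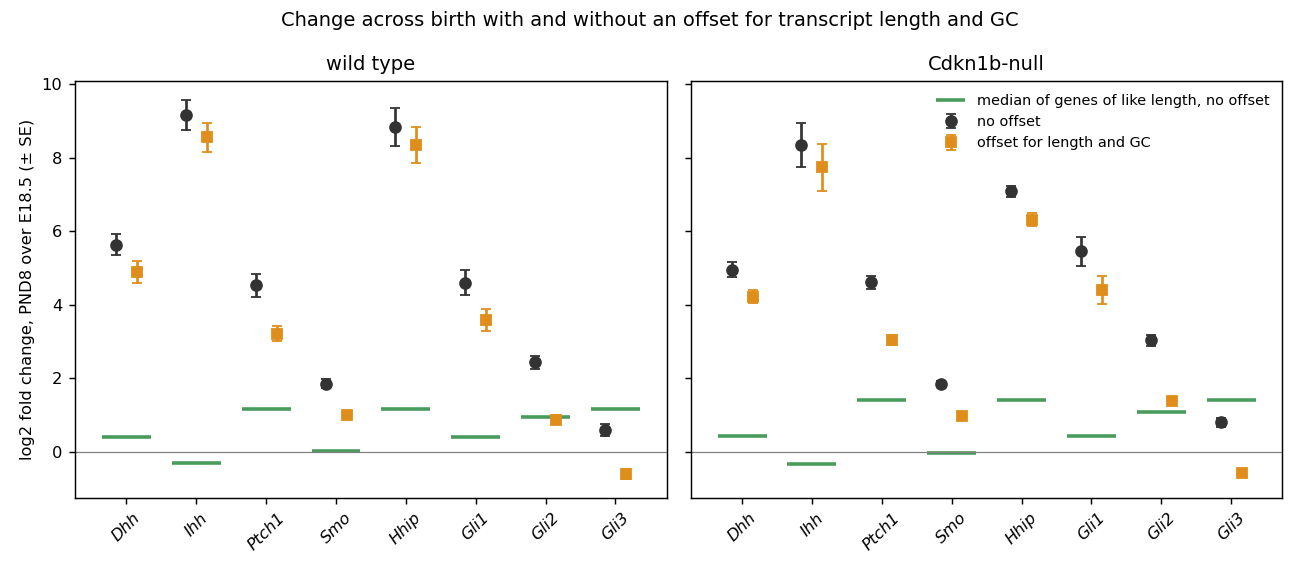
log2 fold change from E18.5 to PND8 (PND8 over E18.5) for each gene in wild type (left) and Cdkn1b-null (right); circles are the fit with no offset and squares the fit with an offset for transcript length and GC, both with SE, and green bars are the median change of all genes of like transcript length. Gli3 lies above 0 without the offset, at 0.59 and 0.80, and below 0 with it, at -0.61 and -0.57, while the other 7 genes stay above 0 in both fits.

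Markers of the cells that make and receive the signal moved in the same step, as did most genes tested. Among all genes, 74.6% were called in wild type and 77.4% in Cdkn1b-null, with 37.6% and 38.9% called higher. Of 10 granulosa cell genes, 8 rose and 1 fell in wild type and 9 rose in Cdkn1b-null, with summed levels going from 366 to 443 CPM at E18.5 to 3509 to 4699 CPM at PND8 in wild type. Inha, a subunit of inhibin, went from 101 ± 12.1 to 1314 ± 133 CPM (SD, n = 4 and 4) and Nr5a2, a nuclear receptor of granulosa cells, from 7.08 ± 2.24 to 501 ± 39.4 CPM. Of 6 theca and steroidogenic genes, 4 rose in each genotype, and their sum went from 156 to 268 CPM to 1083 to 1419 CPM in wild type. Of 10 stroma genes, 6 rose and 2 fell in wild type, and 8 rose and 2 fell in Cdkn1b-null. No marker in these 3 lists was at 0 throughout either wild-type group. Their part in the change of the Hedgehog genes was not tested.

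Between E13.5 and E18.5 most of the list did not pass the test, and Hhip was lower at E18.5 in both genotypes. Of the 7 genes tested, 2 were called lower in wild type, Gli3 and Hhip, where 34% of all genes tested were called and 17.5% called lower. In Cdkn1b-null 2 of 7 were called lower, Gli2 and Hhip, against 30.2% called and 14.5% lower among all genes. The groups of 2 genes in wild type and 4 in Cdkn1b-null did not overlap, beside 34.5% and 39.9% of all genes. Ihh was not tested because its counts were too low. In wild type Hhip passed the filter on low counts only through its E13.5 libraries, so its call there had to follow and is given as a value alone. Its log2 change was -4.14 (SE 0.719) in wild type, and it fell by 2.30 (SE 0.329, edgeR adjusted p = 0.00137) in Cdkn1b-null. As summed counts this was 246 against 14 in wild type, a ratio of 0.0554 (exact 95% interval 0.0298 to 0.0947), and 177 against 52 in Cdkn1b-null, a ratio of 0.216 (0.156 to 0.296). The highest E13.5 value came from wild-type replicate 1, the library richest in adrenal medulla and sympathetic transcripts. In replicate 4, where those transcripts summed to 179 CPM, Hhip was 2.14 CPM, and their part in the Hhip values was not tested. Without replicate 1 the wild-type change was -3.56, and over the 14 alternatives the change ran from -5.21 to -3.56.

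Gli3 fell by 0.68 on the log2 scale from E13.5 to E18.5 in wild type (SE 0.145, edgeR adjusted p = 0.00505), and the Cdkn1b-null difference was -0.51 (SE 0.176, adjusted p = 0.0532). With the length and GC offset the Cdkn1b-null difference was -0.63 (adjusted p = 0.00816), and so past the threshold, where 33% of all genes were called and 18.4% called lower. Over the 13 alternatives for this difference the adjusted p ran from 0.00816 to 0.118. Gli2 fell by 1.17 in Cdkn1b-null (SE 0.346, adjusted p = 0.0327), and the wild-type difference was -0.39 (SE 0.215, adjusted p = 0.187). The Cdkn1b-null call was lost without any 1 of several libraries, such as the E13.5 replicate with the highest level, 28.4 CPM. This library, replicate 1, also had the most mesonephros and duct transcripts of its group. The 6 genes of that list summed to 195 CPM in it, against 58.9 and 43.7 CPM in replicates 3 and 4. In wild type at E13.5 their sums were 141, 112, 37.7 and 145 CPM in replicates 1 to 4. Gli2 in those wild-type libraries was 20.7, 21.0, 18.0 and 13.6 CPM. The part of these genes in the Gli2 values was not tested. In Cdkn1b-null, the difference without E13.5 replicate 1 was -0.56 (adjusted p = 0.0719). Leaving out E18.5 replicate 1, 2, 3 or 4 also moved the adjusted p above the threshold, to between 0.0516 and 0.0888. Over the 13 alternatives it ran from 0.00156 to 0.101. Ptch1 differed by -0.33 (SE 0.268) and -0.14 (SE 0.204), Dhh by -0.91 (SE 0.552) and 0.18 (SE 0.415), and Gli1 by 0.32 (SE 0.432) and -1.30 (SE 0.794) in wild type and Cdkn1b-null, none past the threshold. The Smo difference was 0.08 (SE 0.163) in wild type and -0.27 (SE 0.103, edgeR adjusted p = 0.0741) in Cdkn1b-null. Its Cdkn1b-null groups did not overlap, as for 39.9% of all genes, and over the 13 alternatives the adjusted p ran from 0.0405 to 0.254.

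From PND8 to 12 weeks the ligand Ihh rose in wild type while the 3 Gli genes and Smo fell. In wild type 5 of 8 genes were called, beside 30.5% of all genes tested, and in Cdkn1b-null 2 of 8, Gli2 and Gli3, beside 29.1%. Among all genes, 16.1% were called higher and 14.3% lower in wild type, and 14.3% lower in Cdkn1b-null. Groups did not overlap for 5 of 8 genes in wild type and 3 of 8 in Cdkn1b-null, beside 34.3% and 47.8% of all genes. Gli3 fell by 2.06 on the log2 scale (SE 0.213, edgeR adjusted p = 0.000342) in wild type and 1.96 (SE 0.17, adjusted p = 0.00101) in Cdkn1b-null, which is 4.16-fold and 3.89-fold lower. Gli2 fell by 1.22 (SE 0.193, adjusted p = 0.0022) and 0.83 (SE 0.113, adjusted p = 0.00291). Gli1 fell by 1.33 in wild type (SE 0.36, adjusted p = 0.0228), and the Cdkn1b-null difference was -0.74 (SE 0.273, adjusted p = 0.0886) with groups that did not overlap. The Gli1 call in wild type was lost without PND8 replicate 1 (-1.18, adjusted p = 0.0584) and without PND8 replicate 2 (-1.25, adjusted p = 0.0595). It was also lost with no filter on low counts (-1.32, adjusted p = 0.0897) and with a replicate block (-1.41, adjusted p = 0.0576), and over the 14 alternatives the adjusted p ran from 0.000674 to 0.0897. Smo fell by 0.42 in wild type (SE 0.0912, adjusted p = 0.00794), and the Cdkn1b-null difference was -0.08 (SE 0.0893, adjusted p = 0.568) with overlapping groups.

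Ihh rose by 1.50 on the log2 scale in wild type from PND8 to 12 weeks (SE 0.295, edgeR adjusted p = 0.00575), or 2.83-fold, and its Cdkn1b-null difference was 0.99 (SE 0.538, adjusted p = 0.221). Dhh differed by 0.23 (SE 0.239) in wild type and -0.12 (SE 0.244) in Cdkn1b-null, Ptch1 by -0.20 (SE 0.314) and -0.10 (SE 0.146), and Hhip by -0.58 (SE 0.295) and -0.40 (SE 0.173), none past the threshold. Wild-type replicate 2 at 12 weeks had the lowest Gli1, Gli2, Gli3 and Ptch1 and the highest Ihh of its group. The same library had the highest summed theca and steroidogenic level, 12869 CPM against 3271 to 6093 CPM in the other 3, and the lowest summed stroma level, 3101 CPM against 4721 to 5943. Without it Ihh was higher by 1.23 (adjusted p = 0.00806), and Gli1, Gli2 and Gli3 changed by -1.06, -1.06 and -1.90, each still called.

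Most stroma genes fell in the same step. Among all genes tested 30.5% were called in wild type and 29.1% in Cdkn1b-null, with 14.3% called lower in each. Of 10 stroma genes, 6 were called lower in each genotype and none higher, with a median change of -1.09 in wild type and -0.63 in Cdkn1b-null. Their summed level went from 9478 to 13356 CPM to 3101 to 5943 CPM in wild type and from 7805 to 13101 CPM to 4093 to 4686 CPM in Cdkn1b-null. Col1a2 and Col3a1, fibrillar collagen genes, had the highest levels of this list. Of 6 theca genes, 4 rose in wild type and 5 in Cdkn1b-null. Of 10 granulosa genes, 6 rose and 1 fell in wild type, with a median change of 0.84, and 1 rose and 2 fell in Cdkn1b-null, with a median of 0.15. Their sums went from 3509 to 4699 CPM to 4445 to 7297 CPM in wild type and from 4242 to 4795 CPM to 2861 to 6885 CPM in Cdkn1b-null. The part of granulosa cell abundance in the Ihh values was not tested. No stroma gene was at 0 throughout a group, and the part of stromal abundance in the Gli values was not tested.

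The mean share of Ihh in the summed ligand transcripts was higher at 12 weeks than at PND8 in both genotypes. Per kb of the principal transcript, Ihh made up 58.0% ± 8.71 of Dhh plus Ihh in wild type at PND8 (SD, n = 4) and 75.5% ± 9.07 at 12 weeks (n = 4). In Cdkn1b-null the share was 51.7% ± 13.3 at PND8 and 70.1% ± 6.15 at 12 weeks (n = 3 each). Across the 4 wild-type libraries the ratio of Ihh to Dhh per kb ran from 0.94 to 2.18 at PND8 and from 1.97 to 6.72 at 12 weeks, so the ages overlapped slightly. Dhh plus Ihh summed to 27.3 ± 6.12 CPM per kb at PND8 and 55.5 ± 15.7 at 12 weeks in wild type, and to 21.8 ± 6.52 and 31.0 ± 16.1 in Cdkn1b-null. These shares were not tested. In the fetal libraries Ihh had too few counts for a share to be read.

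**Figure D3:**
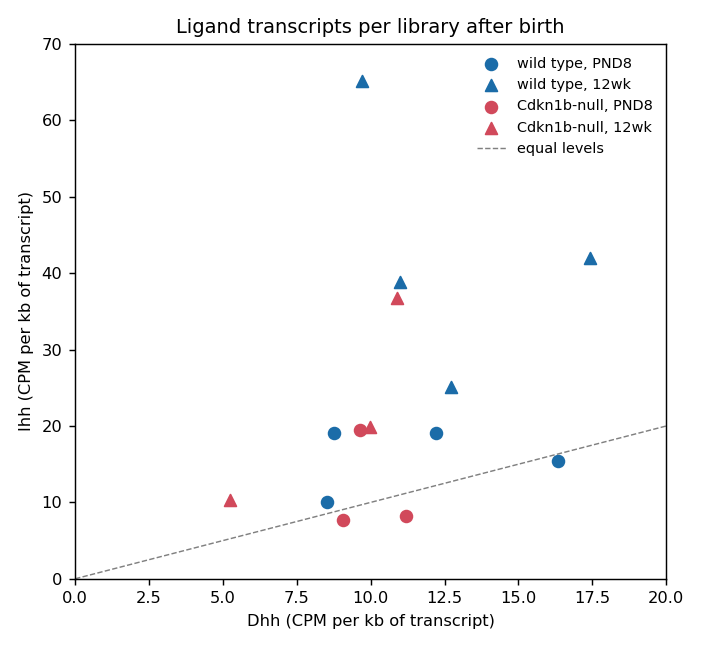
Ihh against Dhh in each postnatal library, both in CPM per kb of transcript, with circles for PND8, triangles for 12 weeks and a dashed line of equal levels; colours give the genotype. All 7 libraries at 12 weeks lie above the line, with ratios from 1.97 to 6.72, whereas the 7 at PND8 lie on both sides of it, from 0.731 to 2.18.

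Between the genotypes, most of the list had no called difference. At E13.5 edgeR called 0 of the 7 genes tested, beside 0.00606% of all genes, with 0 at an unadjusted p under 0.05 and 0 by DESeq2. At E18.5 it called 1 of 7, Gli2, beside 4.99% of all genes called and 1.67% called lower. Here 4 of the 7 were at an unadjusted p under 0.05, beside 3615 of 16322 genes. Hhip, 1 of these 4, passed the filter on low counts only through the libraries where it was higher. At PND8 it called 0 of 8, beside 0.349% of all genes, with 2 at an unadjusted p under 0.05 and 1, Smo, called by DESeq2. Among all genes 2662 of 17785 were at that unadjusted p, and DESeq2 called 741 of 14238. At 12 weeks it called 0 of 8, beside 0.0115%, with 0 at an unadjusted p under 0.05 and 0 by DESeq2. A test for an effect of genotype that varied with age called 0 of 8, beside 0.806% of all genes, with 0 at an unadjusted p under 0.05 and 0 by DESeq2. The age at which Gli2 was called is therefore not shown to differ from the others.

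Gli2 at E18.5 was 14.1 ± 3.40 CPM in wild type and 7.41 ± 1.10 in Cdkn1b-null (SD, n = 4 each), with no overlap. It fell by 0.93 on the log2 scale (SE 0.2, edgeR adjusted p = 0.0235), or 1.91-fold. Leaving out any 1 of 5 of the 8 libraries raised the adjusted p to between 0.0546 and 0.0746: each Cdkn1b-null replicate in turn, and wild-type replicate 4, the highest at 19.0 CPM. The direction held in all of these fits, and the length and GC offset gave -0.78 (adjusted p = 0.0151), where 7.73% of all genes were called and 1.66% called lower. Over the 14 alternatives the adjusted p ran from 0.000588 to 0.0746. At PND8 the Gli2 difference was -0.36 (SE 0.141, adjusted p = 0.284), at E13.5 -0.15 (SE 0.371) and at 12 weeks 0.03 (SE 0.195).

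Hhip and Gli1 differed at E18.5 in opposite directions without passing the threshold. Hhip was 1.77 higher on the log2 scale in Cdkn1b-null (SE 0.608, edgeR adjusted p = 0.12), from 52 summed counts against 14, a ratio of 3.51 (exact 95% interval 1.92 to 6.85). It passed the filter on low counts only through the Cdkn1b-null libraries, where it was higher, so neither this test nor one without a wild-type library supports a difference. Its groups did not overlap, as was the case for 14.8% of all genes tested. Without wild-type replicate 1, which held 9 of the 14 wild-type counts, the difference was 2.84 (adjusted p = 0.0194), in a range of 0.0194 to 0.26 over the 13 alternatives. Gli1 differed by -1.38 (SE 0.522, adjusted p = 0.152), from 3.77 ± 1.65 CPM to 1.44 ± 0.855 CPM, with overlapping values. Smo differed by -0.25 (SE 0.114, adjusted p = 0.221), and Ptch1 by -0.27 (SE 0.207, adjusted p = 0.482). At PND8 Smo was 297 ± 22.4 CPM in wild type and 247 ± 19.0 in Cdkn1b-null with no overlap, a difference of -0.28 (SE 0.0812, adjusted p = 0.176), where 14.5% of all genes did not overlap.

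No ligand difference between the genotypes passed the threshold. Ihh at 12 weeks differed by -0.95 (SE 0.434, edgeR adjusted p = 0.539) and Dhh by -0.56 (SE 0.274, adjusted p = 0.564), with intervals of 1.96 SE to either side from -1.80 to -0.10 and from -1.10 to -0.02. Cdkn1b-null replicate 4 had the lowest Ihh and Dhh of all 12-week libraries, 25.6 and 22.2 CPM. Its granulosa genes summed to 2861 CPM, against 6112.5 and 6884.5 CPM in replicates 1 and 3. Of the 10 granulosa genes, 8 were lower and 2 higher in Cdkn1b-null at 12 weeks, with 0 called, beside 0.0115% of all genes. The part of granulosa cell abundance in these ligand differences was not tested. At PND8 the differences were -0.44 (SE 0.392) for Ihh and -0.21 (SE 0.22) for Dhh. Ptch1 differed by -0.21 at PND8, with an interval from -0.75 to 0.33, and by -0.11 at 12 weeks, from -0.65 to 0.43. This multiple of the SE gives narrower intervals than the test itself uses at these sample sizes, and the intervals do not show that the genotypes were alike.

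**Figure D4:**
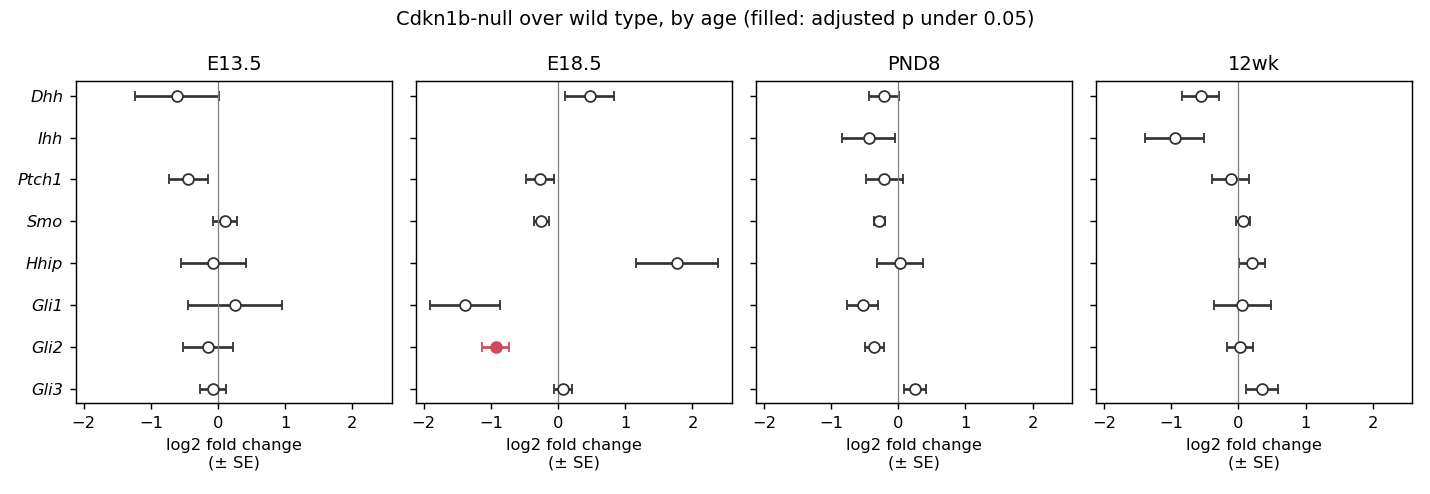
Cdkn1b-null over wild type as log2 fold change with SE for each gene at each age, on a shared axis; filled red points passed the threshold and Ihh was tested only after birth. Gli2 at E18.5, at -0.93, is the only filled point, and Hhip and Gli1 at E18.5 lie at 1.77 and -1.38.

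Cell-type markers differed between the genotypes at E18.5 as well, where 4.99% of all genes tested were called and 1.67% called lower. Of 10 stroma genes, 3 were called lower in Cdkn1b-null and all 10 had a negative difference, with a median of -0.47 beside -0.04 over all genes tested. Their summed level was 4042 to 6761 CPM in wild type and 3432 to 5280 CPM in Cdkn1b-null, and no stroma gene was at 0 throughout a group. Of the 9 granulosa genes tested 3 were called higher, 5 had a positive and 4 a negative difference, and the sums were 366 to 443 against 443 to 555 CPM. Of 5 theca and steroidogenic genes tested 1 was called higher, with sums of 156 to 268 CPM in wild type and 295 to 393 CPM in Cdkn1b-null, which did not overlap. The part of these markers in the Gli2 difference was not tested.

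Other genes of the pathway were called most often across birth, as were all genes tested, with some in each direction. Of 23 further Hedgehog genes, 21 were tested from E18.5 to PND8, and 14 were called higher and 3 lower in each genotype. Among all genes tested 74.6% were called in wild type and 77.4% in Cdkn1b-null, with 37.6% and 38.9% called higher. With the length and GC offset the counts were 11 higher and 4 lower in wild type and 11 and 3 in Cdkn1b-null. The shares of all genes with the offset were 33.5% higher and 37.8% lower in wild type, and 33.3% and 41.3% in Cdkn1b-null. Among ligand release genes, Scube1, a secreted protein of the family that helps release the ligand, rose by 5.42 (SE 0.252) in wild type and 5.79 (SE 0.139) in Cdkn1b-null, and by 4.04 and 4.36 with the offset. Scube3, of the same family, rose by 1.93 and 2.13, or 0.42 and 0.55 with the offset. Among the co-receptors, Cdon rose by 2.89 (SE 0.274) and 3.32 (SE 0.112), while Boc fell by 0.69 (SE 0.199) and 1.02 (SE 0.0792) and Gas1 fell by 1.41 (SE 0.203) and 1.43 (SE 0.234). Cdon, Boc and Gas1 kept these directions and calls with the offset.

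Among transduction genes, Gpr161, a ciliary receptor that holds the pathway back, rose by 3.06 (SE 0.193) across birth in wild type and 3.75 (SE 0.318) in Cdkn1b-null. Evc, which acts with Smo in the cilium, rose by 1.65 in wild type and 1.08 in Cdkn1b-null, and its partner Evc2 by 1.96 and 2.10. Sufu, the cytoplasmic inhibitor that binds Gli proteins, rose by 1.62 and 1.55. Spop, an adaptor for degradation of Gli proteins, fell by 0.98 and 1.06. With the offset these 5 kept direction and call in both genotypes, except that Evc in Cdkn1b-null was 0.10 (adjusted p = 0.451). Of 15 primary cilium genes, 3 were called higher and 3 lower in wild type, and 6 and 4 in Cdkn1b-null. With the offset the cilium counts were 3 higher and 7 lower in each genotype. Of all genes tested 74.6% were called in wild type and 77.4% in Cdkn1b-null, or 71.3% and 74.5% with the offset. Dync2h1, the motor of return transport in the cilium, changed sign, from 0.61 to -0.37 in wild type and from 1.08 to -0.29 in Cdkn1b-null.

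Between E13.5 and E18.5, 2 of the 22 other Hedgehog genes tested were called higher and 2 lower in wild type. Among all genes tested 34% were called in this step in wild type and 30.2% in Cdkn1b-null. Scube2, of the same release family, rose by 2.91 (SE 0.317, edgeR adjusted p = 0.000125), from 3.01 ± 0.991 to 22.6 ± 7.49 CPM, and Gpc3, a glypican that binds Hedgehog ligands, fell by 1.08 (SE 0.216, adjusted p = 0.00362). In Cdkn1b-null Scube2 rose by 1.76 (SE 0.432) and Gpc3 fell by 0.94 (SE 0.149), among 3 called higher and 5 lower of 21. Boc rose by 0.73 and 0.33 in the 2 genotypes. Scube3 fell by 0.75 in Cdkn1b-null. Of 15 cilium genes, 3 were called higher in this step in wild type and 4 in Cdkn1b-null, with 0 called lower in either. Among these, Cep290 and Dync2h1 rose by 1.40 and 0.93 in wild type and by 1.20 and 1.07 in Cdkn1b-null.

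From PND8 to 12 weeks, 1 of 22 other Hedgehog genes was called higher and 7 lower in wild type, and 1 and 6 of 21 in Cdkn1b-null. Of all genes tested 30.5% were called in wild type and 29.1% in Cdkn1b-null. Gpc3 fell by 1.97 (SE 0.158) and 1.50 (SE 0.107). Boc fell by 0.74 in wild type and rose by 0.42 in Cdkn1b-null, and this difference between the genotypes was not tested on its own. Disp2, a relative of the ligand export gene Disp1, was the gene called higher in wild type, a call that had to follow because it passed the filter only through its 12-week libraries. It had 12 counts summed over the PND8 libraries and 126 over the 12-week ones, or 0.0808 ± 0.0659 and 0.971 ± 0.338 CPM (SD, n = 4 and 4). Scube2 fell by 1.55 in wild type and Scube1 by 0.88 in Cdkn1b-null. The kinase gene Stk36 fell by 0.81 and 1.42, Evc fell by 0.66 in wild type and Cdon fell by 0.65 in Cdkn1b-null. Of 15 cilium genes, 2 were called lower in wild type and 4 in Cdkn1b-null, with 0 called higher. Ofd1 fell by 0.69 and 0.64 and Kif3a by 0.27 and 0.43.

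With the main edgeR settings none of the other Hedgehog genes was called between the genotypes. With all samples kept, other edgeR settings called up to 2, all lower in Cdkn1b-null. These were 2 at E18.5 with a replicate block, 1 at E18.5 and 1 at PND8 with no filter, and 1 at E13.5 with all groups in 1 fit. Among all genes the same fits called 937 of 16322, 969 of 31058, 258 of 31168 and 59 of 20359. Fits that left out a replicate were not counted here. With the main settings the numbers at an unadjusted p under 0.05 were 1 of 22 at E13.5, 5 of 21 at E18.5, 7 of 21 at PND8 and 2 of 22 at 12 weeks. In the interaction the number was 4 of 22. Among all genes they were 576 of 16508, 3615 of 16322, 2662 of 17785 and 1675 of 17396 at the 4 ages, and 2589 of 20359 in the interaction. DESeq2 called 1, 3, 3 and 1 of 23 at the 4 ages and 0 in the interaction. Among all genes given an adjusted p it called 71 of 20921, 1676 of 15955, 741 of 14238 and 298 of 18017 at these ages. With the main edgeR settings no cilium gene was called in any genotype comparison, with 0, 0, 1 and 1 of 15 at an unadjusted p under 0.05 at the 4 ages and 1 in the interaction. DESeq2 called 1 cilium gene, at PND8.

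**Figure D5:**
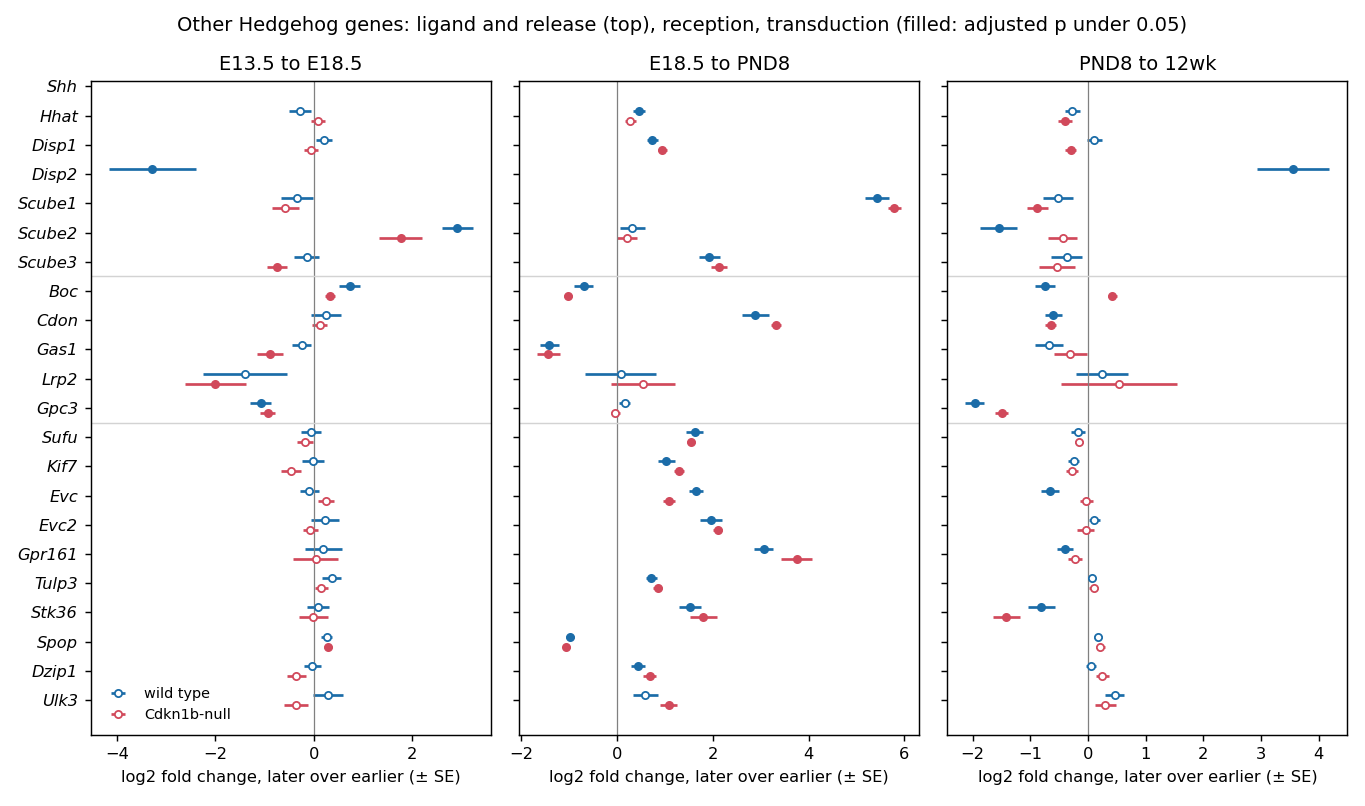
log2 fold change (later over earlier age, with SE) of other Hedgehog genes in wild type (blue) and Cdkn1b-null (red), grouped from top to bottom as ligand and release, reception and transduction genes; filled points passed the threshold and genes without a point were not tested. In the middle panel, E18.5 to PND8, most filled points lie above 0, with Scube1 farthest at 5.42 and 5.79, and Boc, Gas1 and Spop lie below 0 in both genotypes.

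Across the 29 libraries 7 of the 8 genes shared the step across birth, and their levels correlated with each other more than with Gli3. Pearson's r of log2 CPM was 0.97 for Dhh and Ihh, 0.968 for Dhh and Ptch1, and 0.954 for Smo and Gli1. For Gli3 it ran from -0.426 with Ihh to 0.101 with Gli2. These are descriptions, since the points share the step across birth along with depth and library composition. Of 12965 genes compared, the 3 most like a member are given for 7 of the members. For Ptch1 they were Trim44, Supt6 and Sptan1 (r from 0.989 to 0.991), and for Ihh Plod3, Cables1 and Eya3 (0.985 to 0.988). Smo was most like Six5, Cul7 and Hnrnpul1 (0.984 to 0.987), and Hhip most like Xpo5, AI506816 and Alg10b (0.98 to 0.982). For Gli1 the nearest were Sh3pxd2b, Cacng7 and Agrn (0.965 to 0.973), for Gli2 Fzd7, Ptprs and Pygo1 (0.956 to 0.965), and for Gli3 Lingo1, Rps4l and Frmd4b (0.911 to 0.935).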

How the data were processed

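The authors deposited 1 table of RSEM expected counts, estimated read counts per Ensembl mouse gene that need not be whole, per the file headers. The submitters' processing notes list Trim Galore, STAR 2.5.2, RSEM 1.3.0 and FastQC 0.11.5. The genome build, annotation release and strandedness are not given in the sources used here, so overlapping genes are uncertain. Groups came from the sample titles. The expected counts were rounded and tested with edgeR 4.0.16 (R 4.3.3), using TMM, filterByExpr with a count minimum of 10 and a total of at least 15, robust quasi-likelihood dispersion and Benjamini-Hochberg adjustment over all genes tested. Each comparison used its own groups. SE is the size of the log2 change divided by the square root of F. CPM was scaled over all 29 samples. Gene positions and transcript lengths came from GENCODE M21. Alternatives were DESeq2 1.42.0, RLE factors, no filter, all groups together, a replicate block, each replicate left out and, added after seeing the data, an offset for length and GC fitted with mgcv 1.9.3. All 39 replicate pairs differed by more than sampling noise. The tests were checked on simulated data. Named genes are the 8 members; from the other Hedgehog and cilium lists, up to 4 called genes per genotype comparison and up to 2 per direction, list and age step, by smallest p; and from each marker list used, its 2 genes of highest level. Some genes that this rule names are not reported here. The members and lists were chosen with earlier results of these data known.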

Additional observations from a re-analysis of the deposited data

Results flagged for a closer look

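Hhip was singled out at both fetal ages because 1 wild-type library lay far from its group. At E13.5 wild-type replicate 1 measured 6.145 CPM, and its gap to the nearest replicate was 0.966 of the group's range. At E18.5 wild-type replicate 1 measured 0.464 CPM, with a gap of 0.87 of the range; this library held 9 counts. Both gaps are above Dixon's critical value for 4 libraries. In all, 40 groups were checked, and chance flags about 1 in 20 groups.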

How the results depend on the processing

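The calls across birth held for 7 genes in every alternative run, and Gli3 reversed with the length and GC offset, to -0.61 in wild type and -0.57 in Cdkn1b-null. Among the 7, the calls on Ihh, and on Hhip in wild type, had to follow from the near absence of counts at E18.5. The number of genes called between genotypes at E18.5 was 1, and 0 to 2 when each replicate was left out. At PND8 it was 0, and 1 with DESeq2. From E13.5 to E18.5 in Cdkn1b-null it was 2, with 4 by DESeq2, 4 with RLE factors and 1 to 4 when each replicate was left out. The other counts stayed within 1.5 times the main count: when each replicate was left out, from PND8 to 12 weeks they ran from 4 to 6 in wild type and 2 to 3 in Cdkn1b-null.

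Replicate numbers were not shown to pair the samples: the mean correlation of same-numbered deviations was -0.017 (E13.5), 0.102 (E18.5), 0.083 (PND8) and 0.091 (12 weeks). At no age did every sample correlate best with its own number, though some did. Single same-numbered correlations from E18.5 on ran from -0.019 to 0.16. With a replicate block, the count was 2 between genotypes at E18.5, where Gli1 was added (-1.51, edgeR adjusted p = 0.0303, in a range of 0.0303 to 0.325 over its 14 alternatives). It was 1 from E13.5 to E18.5 in Cdkn1b-null, and 4 in wild type from PND8 to 12 weeks. In the genotype by age test with this block, edgeR gave Gli1, Gli2 and Smo unadjusted p of 0.0376, 0.0221 and 0.0218. Their adjusted p were 0.353, 0.295 and 0.294.

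Of the 64 group means, 64 stayed within 1 SD with RLE factors and 59 with library totals alone. Depth limits Ihh before birth and Hhip at E18.5.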
